A study of Mus musculus with 60 samples.

Results

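The comparison described here is the effect of the Glo1 genotype in the hippocampus, read over both diets of the study. It used all 20 hippocampus libraries of the 60 in the series, 10 from mice with a knockout of Glo1 (KO) and 10 from wild-type (WT) mice, chosen by the region named in their labels. The study asked how loss of Glo1 and a shortage of vitamin B6 (VB6) affect the brain, and sequenced polyadenylated RNA from the hippocampus, prefrontal cortex and striatum of 20 mice, with 1 library per region and mouse. WT and KO mice ate either a normal diet, with pellets holding 1.4 mg of VB6 per 100 g, or one lacking VB6, whose pellets held 5 µg per 100 g, from 8 to 12 weeks of age, and each of the 4 hippocampus groups held 5 mice. The VB6 level given in the labels lay between 58.25 and 77.48 ng/µl in WT mice and between 60.09 and 78.09 ng/µl in KO mice on the normal diet. On the lacking diet it lay between 3.02 and 4.86 ng/µl in WT and between 2.25 and 5.63 ng/µl in KO mice. The labels do not say how the KO allele was made, on which strain background it was kept, or whether WT and KO mice were littermates. All 10 KO libraries carry batch label 1 and all 10 WT libraries batch label 2. Genotype and batch label therefore coincide and cannot be told apart in any KO against WT value given here.

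Glo1 encodes glyoxalase I, which with glutathione turns the reactive sugar by-product methylglyoxal into an intermediate that the hydrolase encoded by Hagh then converts to lactate. Methylglyoxal forms mainly from the triose phosphates of glycolysis and modifies proteins and nucleic acids. The active form of VB6, pyridoxal phosphate, is the cofactor of many aminotransferases and decarboxylases, among them the enzymes that make GABA, and pyridoxamine can trap reactive carbonyl compounds.

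Library totals lay between 9081469 and 13928265 counts and RNA integrity numbers (RIN) between 8.3 and 9.3, with a mean of 8.66 in WT and 8.78 in KO libraries. Expression is given as CPM (normalised counts scaled to a common library size). A count of 3 corresponded to 0.215 to 0.33 CPM across the libraries, a floor that covers counting error only. Markers of the hippocampal fields were present in every library, with summed RPKM (reads per length of gene and depth of library) of 140 to 183 for dentate granule cells and 141 to 162 for CA1 pyramidal cells. Choroid plexus markers ranged from 7.11 to 1270 summed RPKM, above 100 in 4 WT and 4 KO libraries. The WT libraries of mouse 226, on the lacking diet, and mouse 286, on the normal diet, stood apart on the first principal component of log2 CPM. They had scores of 54.9 and 26.6 beside 11 for the next library and -18.5 for the lowest, and results that change without them are given both ways.

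Few genes were called as different between KO and WT hippocampus, and nearly all of them lay on the chromosome that carries Glo1. In simulated counts the test used here found 52 percent of 1.3-fold and 66 percent of 1.5-fold changes, so small differences can be missed. Of 171 genes it called there, 12 were false. The simulation changed more genes than were called here and none of the lowest counts, so these shares may be lower in the real data. Of 13393 genes tested, 21 passed the threshold (edgeR's quasi-likelihood test with diet as a covariate, Benjamini-Hochberg adjusted p under 0.05), which is 0.157 percent. There were 15 genes lower (0.112 percent) and 6 higher (0.0448 percent) in KO mice. Of these 21 genes, 20 lie on chromosome 17, where 3.29 percent of the 608 tested genes were called, and 1, Mal, lies elsewhere, on chromosome 2. Among the 12714 tested genes placed on other chromosomes, 0.00787 percent were called. At an unadjusted p under 0.05 the test listed 539 genes, or 4.02 percent of all tested, 197 higher (1.47 percent) and 342 lower (2.55 percent). The groups did not overlap in CPM for 8 of the 21 genes, 6 lower (0.0448 percent of all tested) and 2 higher (0.0149 percent). These 8 were also the only such genes among all tested, 0.0597 percent. For Rnaset2b, among the 6 lower genes, both edges of the gap (0.32 and 0.313 CPM) lay within the range of the 3-count floor. With RIN as a covariate 41 genes passed, 24 of them on chromosome 17, and with DESeq2 37 passed, 25 of them there. All 21 genes stayed past the threshold under both. Without the libraries of mice 226 and 286, 25 genes passed, 19 of the 21 among them. Without the 8 libraries rich in choroid plexus markers, which left 6 against 6, Glo1 and Atp6v0c passed and all 21 kept their direction.

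Glo1 itself (chromosome 17, 30592861 to 30612659 in GRCm38, the mm10 build) was the most changed gene. WT libraries held 534 to 734 counts, or 47 CPM at the lowest, 55.9 at the median and 78.3 at the highest. KO libraries held 0 to 9 counts, or 0, 0.326 and 0.989 CPM. Every KO library lay far below every WT library, as the genotype labels require. The fitted log2 fold change of KO over WT was -7.25 (SE 0.182, adjusted p 2.68e-20), a 152-fold lower level.

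Atp6v0c (chromosome 17, 24163865 to 24169678) encodes the proteolipid subunit that forms the proton-carrying ring of the vacuolar H+-ATPase, the pump that acidifies lysosomes and synaptic vesicles. WT libraries gave 3.91, 7.79 and 10.6 CPM (lowest, median, highest; the same order is used below) and KO libraries 0.382, 0.687 and 1.42 CPM. The groups did not overlap, and the log2 fold change was -3.25 (SE 0.218, adjusted p 2.93e-10), or 9.51-fold lower. Of the 75-base stretches of its transcripts (the read length), 9.24 percent also lie in those of a pseudogene, Atp6v0c-ps2. Its WT mean of 2.3 RPKM was the lowest of the 18 V-ATPase genes tested. What share of its RNA was counted was not tested. The other subunits of the pump were set beside Atp6v0c. Of 18 V-ATPase genes tested, Atp6v0c alone passed and 14 lay above 0, against 50.4 percent of all genes. Their median log2 fold change was 0.041, beside 0.001 over all genes. Atp6v1d (catalytic sector) stood at 0.07 (adjusted p 1) and Atp6v1g2, also on chromosome 17, at 0.10 (adjusted p 1).

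3 genes at the proximal end of chromosome 17, more than 20 Mb before Glo1, were lower in KO mice and have a close copy nearby. Rnaset2b (6978860 to 6998193), a ribonuclease of the T2 family, gave 0.32, 1.38 and 3.47 CPM in WT and 0, 0.128 and 0.313 CPM in KO libraries. The groups did not overlap in CPM, but both edges of the gap lay within the range of the 3-count floor. In raw counts they did overlap, with 3 counts in WT mouse 226 and 0 to 4 in KO libraries (log2 -3.21, SE 0.440, adjusted p 2.42e-04). Rsph3b (6904716 to 6948356), a radial spoke protein of motile cilia, gave 0.32, 1.21 and 1.65 CPM in WT and 0, 0.246 and 0.592 CPM in KO libraries. Here the groups overlapped at the lowest WT library (log2 -2.18, SE 0.426, adjusted p 0.0183). Its call was lost without WT mouse 246, WT mouse 259 or KO mouse 368 (adjusted p 0.054, 0.0517 and 0.0535), and the fitted folds of both genes depend on the prior count used for such low counts. Tagap1 (6954965 to 6961565), of the T cell activation GTPase-activating protein genes, gave 6.31, 8.4 and 11.9 CPM in WT and 2.77, 4.15 and 5.49 CPM in KO libraries. Its groups did not overlap, and its log2 fold change was -1.05 (SE 0.142, adjusted p 2.42e-04).

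The copies of these genes were measured too. Tagap (7926000 to 7934897), the relative of Tagap1, went the other way, with 0.341, 0.705 and 3.18 CPM in WT and 4.39, 5.16 and 6.5 CPM in KO libraries. Every KO library lay above every WT library (log2 2.08, SE 0.291, adjusted p 3.15e-04). Rnaset2a (8128580 to 8148246) held 2 to 13 counts in WT and 2 to 13 in KO libraries and was too low to be tested. Rsph3a (7945614 to 7979556) gave 0.918, 1.47 and 2.17 CPM in WT and 0.662, 1.2 and 1.87 CPM in KO libraries, which overlapped broadly (log2 -0.26, SE 0.207, adjusted p 1).

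These pairs are shown by sequence because reads from one copy can be counted for the other or dropped as ambiguous. The transcripts of Tagap1 share 52.3 percent of their 75-base stretches (the read length) with Tagap, those of Rnaset2b 49.6 percent with Rnaset2a, and those of Rsph3b 49.5 percent with Rsph3a. The longest coding sequences of Tagap1 and Tagap, aligned without gaps over 1515 bases, are 92.7 percent identical. A coding window of 75 bases that carries 4 differences, in capitals, is given from GENCODE M21 transcripts. It covers coding bases 151 to 225 of Tagap1 (minus strand, between 6957700 and 6960742 with an intron inside) and 778 to 852 of Tagap (plus strand, between 7931562 and 7932199).
Tagap1: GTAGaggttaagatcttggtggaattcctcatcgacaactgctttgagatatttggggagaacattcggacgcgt
Tagap: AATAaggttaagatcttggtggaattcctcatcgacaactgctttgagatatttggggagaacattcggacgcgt
Rnaset2b and Rnaset2a have coding sequences of 777 bases that are 100 percent identical, so only reads reaching outside the coding part can separate them. Their first 75 coding bases (6978998 to 6979072, plus strand, and 8147620 to 8147694, minus strand) are the same run in both genes.
Rnaset2b: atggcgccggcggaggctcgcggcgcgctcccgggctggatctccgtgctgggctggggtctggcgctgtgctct
How reads matching more than 1 place were handled is not given in the sources used here, so the level of each copy is uncertain.

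Prr18 (chromosome 17, 8340406 to 8344113), a proline-rich protein and the last gene called in this proximal stretch, gave 31.4, 38.9 and 44.9 CPM in WT and 20.6, 26.3 and 33.8 CPM in KO libraries. The groups overlapped, and the log2 fold change was -0.57 (SE 0.0858, adjusted p 7.01e-04).

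Of 45 tested genes named Zfp (zinc finger proteins) on chromosome 17, 5 were called, 3 higher and 2 lower, beside 15 of its 563 other tested genes. All 5 lie from 8.94 to 7.42 Mb before Glo1, a stretch whose 13 tested genes are all named Zfp, so that 8 of them there did not pass. Zfp983 (21650572 to 21664966) gave 5.01, 6.58 and 13.5 CPM in WT and 13.9, 16 and 17.9 CPM in KO libraries. The groups did not overlap, but WT mouse 317 lay next to the lowest KO library (log2 1.10, SE 0.137, adjusted p 8.17e-05). Zfp760 (21707430 to 21725636; log2 0.53, SE 0.0957, adjusted p 9.11e-03) and Zfp945 (22846697 to 22867309; log2 0.39, SE 0.0688, adjusted p 6.53e-03) were also higher. Zfp758 (22361430 to 22393909) was lower, with a log2 fold change of -0.77 (SE 0.139, adjusted p 9.11e-03). Zfp40 (23173869 to 23193284) was lower too, with 52.6, 66.5 and 102 CPM in WT and 40.2, 50.6 and 55 CPM in KO libraries, which overlapped (log2 -0.49, SE 0.0941, adjusted p 0.0147).

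Prss41 (23836785 to 23844219), a serine protease gene, was close to silent in most WT libraries and low in all KO libraries. It gave 0, 0.084 and 1.82 CPM in WT and 1.51, 2.67 and 3.73 CPM in KO libraries. 8 WT libraries held 0 to 2 counts, and the WT libraries of mice 241 and 317 held 17 and 20. These reached into the KO range of 16 to 44 counts (log2 2.71, SE 0.489, adjusted p 9.11e-03).

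Decr2 (26081208 to 26090322), a peroxisomal enzyme that helps break down unsaturated fatty acids, gave 22.6, 26.6 and 30.3 CPM in WT and 15.9, 18.7 and 20.5 CPM in KO libraries. Its groups did not overlap (log2 -0.54, SE 0.0724, adjusted p 2.2e-04). Gnptg (25232224 to 25240328), a subunit of the enzyme that starts the mannose 6-phosphate tag on lysosomal proteins, gave 26.5, 30.6 and 37.4 CPM in WT and 19.8, 22.6 and 25.5 CPM in KO libraries. It did not overlap either (log2 -0.46, SE 0.0679, adjusted p 7.01e-04), but 46.2 percent of its 75-base stretches also lie in transcripts of Unkl on the opposite strand. Unkl gave 5.73, 7.63 and 8.25 CPM in WT and 5.26, 6.64 and 10.6 CPM in KO libraries and did not pass (log2 -0.04, SE 0.119, adjusted p 1). Enpp4 (44096307 to 44105809), a phosphodiesterase of the cell surface, was lower by a small amount (log2 -0.32, SE 0.0612, adjusted p 0.0171) and lost its call without 1 library, KO normal-diet mouse 368 (adjusted p 0.0535).

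Rps2 (24718121 to 24721927), a protein of the small ribosomal subunit, gave 19.9, 26.5 and 33.5 CPM in WT and 11.7, 13.6 and 22.5 CPM in KO libraries. The groups overlapped (log2 -0.83, SE 0.123, adjusted p 7.01e-04), and 36 percent of its 75-base stretches also occur in other transcripts, most often a pseudogene. Rnps1 (24414646 to 24425898), a splicing factor, had a log2 fold change of -0.37 (SE 0.0684, adjusted p 0.0118). Ppil1 (29250835 to 29263971), a prolyl isomerase of the spliceosome and the called gene nearest to Glo1, gave 3.64, 5.81 and 8.39 CPM in WT and 1.98, 3.45 and 3.91 CPM in KO libraries. A single WT library, of mouse 246, lay within the KO range (log2 -0.83, SE 0.155, adjusted p 0.0118).

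H2-T24 (36003471 to 36020800), a non-classical major histocompatibility complex class I gene, was higher in KO mice, with 1.71, 2.5 and 4.73 CPM in WT and 3.22, 5.14 and 10.2 CPM in KO libraries. The groups overlapped (log2 1.03, SE 0.209, adjusted p 0.0288), and the call held in 9 of the 20 fits that left out 1 library (adjusted p up to 0.101 in the others). Of the 15 tested genes for class I molecules and antigen loading, H2-T24 was the 1 that passed. Its neighbour H2-T22 (36037128 to 36042742) had values of 3.52, 5.84 and 8.15 CPM in WT and 1.97, 3.92 and 5.49 CPM in KO libraries, a log2 difference of -0.60 in the opposite direction that did not pass (SE 0.162, adjusted p 0.256). Of the 75-base stretches of H2-T22, 40 percent also occur in other transcripts. H2-T23 was lower too, at -0.90 (SE 0.313, adjusted p 0.796), with means of 1.32 CPM in WT and 0.701 CPM in KO libraries. B2m, the shared light chain, stood at -0.07 (adjusted p 1).

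**Figure D1:**
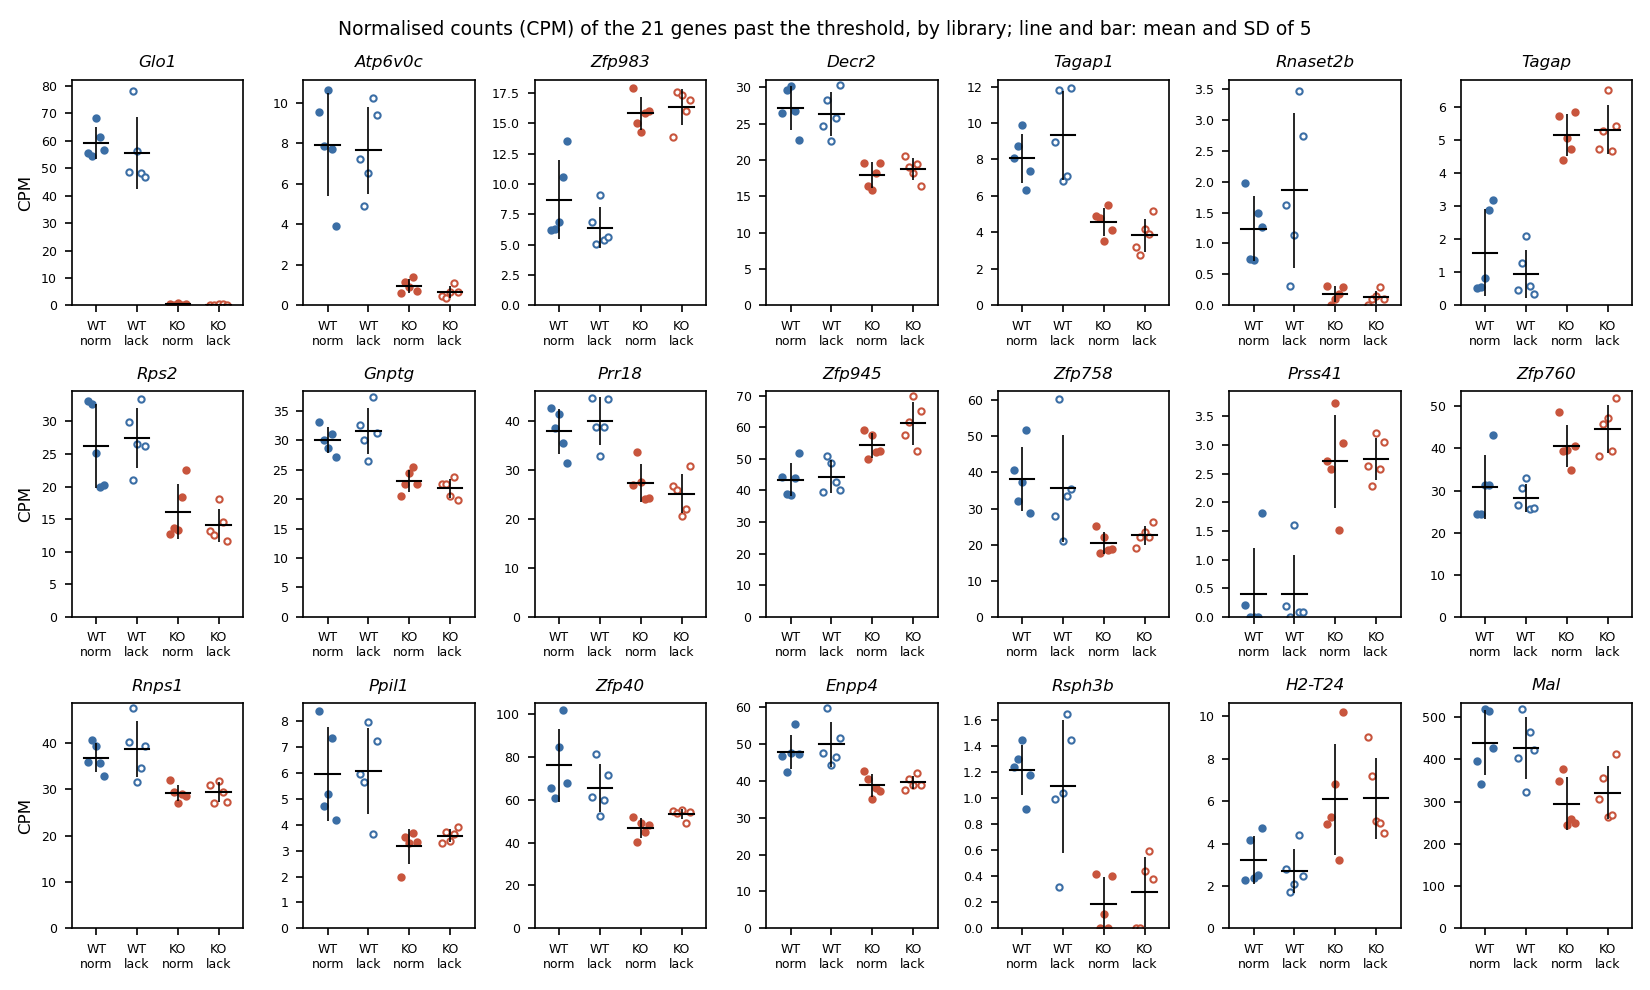
Normalised counts (CPM, linear axis from 0) of the 21 genes past the threshold in each hippocampus library, grouped by genotype and diet (blue WT, red KO, filled normal diet, open lacking diet), with the mean and SD of 5 libraries. KO libraries of Glo1 lie at 0 to 0.989 CPM beside 47 to 78.3 CPM in WT, and single WT libraries stand high for Zfp983, Tagap and Prss41.

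The called genes were not spread evenly along chromosome 17. Of the 20, 17 start before Glo1 (nearer the centromere) and 2 after it, H2-T24 at 5.41 Mb and Enpp4 at 13.5 Mb. From 5 to 10 Mb before Glo1, 10 of 81 tested genes were called (12.3 percent), and more than 20 Mb before it 5 of 27 (18.5 percent). Within 5 Mb after Glo1, 0 of 104 were called by edgeR and 5 had an unadjusted p under 0.05. The 10 tested genes nearest to Glo1, 5 on each side, did not pass (all adjusted p 1). Btbd9, whose end lies just before Glo1, had 60.1, 72.6 and 82.7 CPM in WT and 61.2, 65.5 and 82.1 CPM in KO libraries (log2 -0.12, SE 0.0611). Dnah8, the next gene after Glo1 and a dynein heavy chain, had the largest difference of these 10, 0.48 (SE 0.301), at 0.230 to 2.23 CPM in WT and 0.329 to 2.52 CPM in KO libraries.

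**Figure D2:**
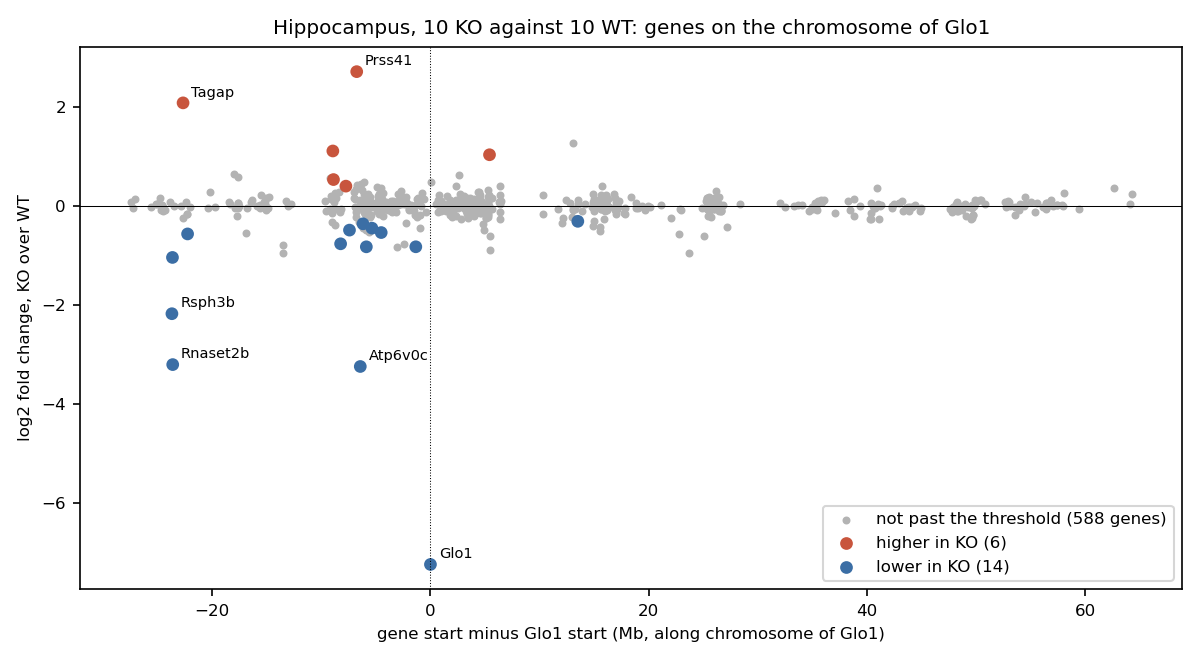
Fitted log2 fold change (KO over WT) of the 608 tested genes of chromosome 17 against the distance of their start from that of Glo1, in Mb. The 6 genes higher (red) and 14 lower (blue) in KO lie mostly before Glo1, and genes more than 20 Mb after it are all grey, not past the threshold.

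Some WT mice lay between the other WT mice and the KO mice for genes of this chromosome, in 1 to 3 brain regions depending on the mouse and the gene. The 3 genes and 3 mice given here were chosen after their values were seen. In hippocampus, WT mouse 317 was the WT library nearest to the KO side for 8 of the 20 genes and WT mouse 241 for 5. For Zfp983, mice 317, 286 and 241 had 13.5, 10.6 and 9.1 CPM, beside 5.01 to 6.88 CPM in the other 7 WT mice and 13.9 to 17.9 CPM in KO mice. In prefrontal cortex Zfp983 stood at 14.3 CPM in mouse 317, within the KO range of 13.8 to 19.5, and at 12.5 CPM in mouse 241, while mouse 286, at 8.15 CPM, lay within the 6.3 to 8.29 CPM of the other WT mice. In striatum mouse 317, at 12.4 CPM, again lay within the KO range of 11.9 to 18.1, and mice 241 and 286, at 9.44 and 8.43 CPM, lay within the other WT mice at 5.85 to 11.6. So for Zfp983 mouse 317 stood above the other WT mice in all 3 regions, mouse 241 in 2 and mouse 286 in hippocampus only. For Tagap in hippocampus mice 317, 286 and 241 had 3.18, 2.87 and 2.09 CPM, beside 0.341 to 1.28 CPM and 4.39 to 6.5 CPM. The prefrontal cortex and striatum libraries of the same mice are separate measurements. Tagap stood in prefrontal cortex at 1.81 CPM in mouse 317, 1.39 in mouse 286 and 3.02 in mouse 241, beside 0.107 to 0.879 CPM in the other WT mice and 3.25 to 5.22 CPM in KO mice. In striatum it stood at 1.7, 1.83 and 2.3 CPM, beside 0.114 to 1.38 CPM in the other WT and 2.66 to 4.82 CPM in KO mice. Thus all 3 mice lay between the groups in all 3 regions for Tagap. For Prss41, mouse 317 lay above the other WT mice in all 3 regions, with 1.82, 2.71 and 4 CPM in hippocampus, prefrontal cortex and striatum. Mouse 241 did so in hippocampus (1.61 CPM) and striatum (3.84 CPM) but not in prefrontal cortex (0.363 CPM, where the other 7 WT mice reached 0.391), and mouse 286 did so in none. What sets these mice apart was not tested.

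**Figure D3:**
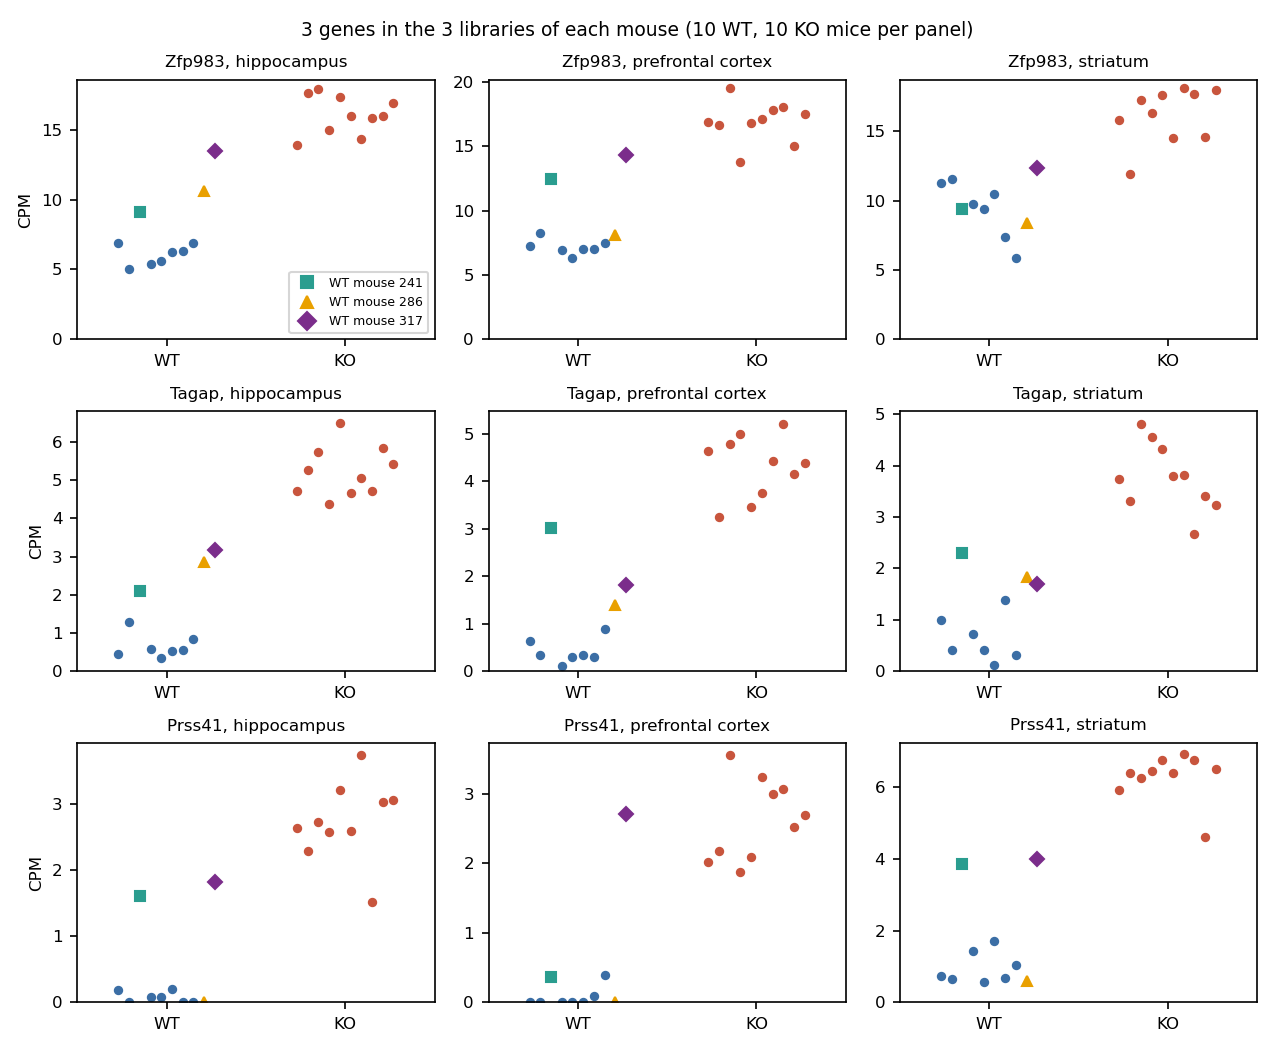
CPM of Zfp983, Tagap and Prss41 in the hippocampus, prefrontal cortex and striatum libraries of each mouse (10 WT left, 10 KO right in each panel, linear axis from 0). WT mice 241 (square), 286 (triangle) and 317 (diamond) lie between the other WT and the KO mice for Tagap in all 3 regions.

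The genotype effect was next read on each diet, for which the labels give separate mice. All 21 had the same sign on both diets, a count that their selection on both diets together favours (38.9 percent of all tested genes had the same sign). Atp6v0c stood at -3.02 (SE 0.303) on the normal and -3.49 (SE 0.312) on the lacking diet, Decr2 at -0.60 (SE 0.103) and -0.49 (SE 0.102), and Tagap at 1.69 (SE 0.393) and 2.51 (SE 0.415). The fitted effect was larger on the lacking diet for 15 of the 21 genes. The share over all tested genes was not counted, and for none of the 21 did the difference between diets pass the threshold. Zfp40 was the 1 gene among the 21 with an unadjusted interaction p under 0.05 (0.0267), with -0.70 (SE 0.123) on the normal and -0.29 (SE 0.121) on the lacking diet, which did not survive adjustment. Over all genes, edgeR's interaction test called 0 of 13393 genes and listed 1265 at an unadjusted p under 0.05 (9.45 percent). DESeq2 called 0 and listed 1344, and 5 percent of the genes would be 670. In simulated counts of the same kind, edgeR's interaction test found 12 percent of 1.3-fold and 24 percent of 1.5-fold differences, so a count of 0 can miss smaller ones. Of 111 genes it called there, 5 were false.

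**Figure D4:**
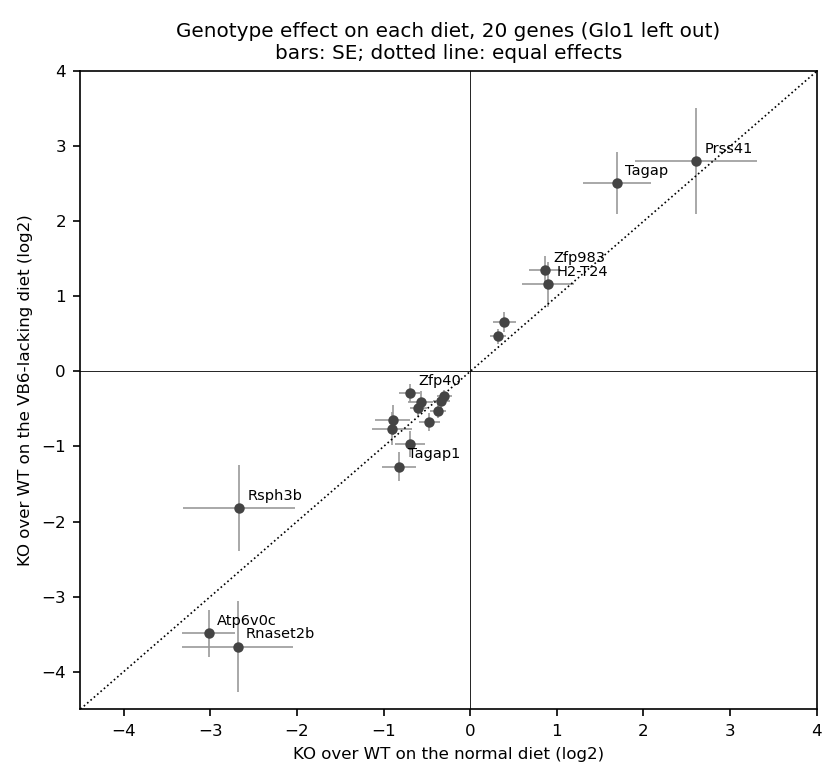
Fitted log2 fold change of KO over WT on the normal diet (horizontal) and on the VB6-lacking diet (vertical) for 20 called genes, Glo1 left out, with SE bars and the line of equal effects. All 20 points lie in the quadrants of equal sign, and Zfp40 lies above the line, with -0.70 and -0.29.

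Mal (chromosome 2, 127633226 to 127656695) was the 1 called gene outside chromosome 17. It encodes the myelin and lymphocyte protein, a proteolipid of myelin, the insulating membrane that oligodendrocytes wrap around axons. Its values were 322, 425 and 519 CPM in WT and 245, 287 and 412 CPM in KO libraries. The groups overlapped, although the KO median lay below the lowest WT library (log2 -0.49, SE 0.103, adjusted p 0.0436). The call held in 6 of 20 fits that left out 1 library (adjusted p up to 0.128 in the others) and was lost without the libraries of mice 226 and 286 (log2 -0.43, adjusted p 0.131).

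The other markers of oligodendrocytes lay on the same side of 0 without passing the threshold. Of 10 markers tested, all 10 had log2 fold changes below 0, against 49.6 percent of all genes, and 9 had an unadjusted p under 0.05 with a lower value in KO, against 2.55 percent. The median was -0.33, and it was -0.37 on the normal diet and -0.27 on the lacking diet. It was -0.30 without the libraries of mice 226 and 286 and -0.38 without those rich in choroid plexus markers. Cnp, an enzyme of the cytoplasmic loops of myelin, gave 157, 176 and 221 CPM in WT and 111, 127 and 189 CPM in KO libraries (log2 -0.37, SE 0.0881, adjusted p 0.128). The groups overlapped. Mobp stood at -0.36 (adjusted p 0.428), Cldn11, the tight junction protein of myelin, at -0.40 (adjusted p 0.176), and Mbp at -0.16 (adjusted p 1). With DESeq2 3 of the 10 markers passed.

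The fit was repeated with RIN as a covariate. Then 4 of the 10 markers passed, Mal, Cldn11 and Mobp among them, and the list median was -0.38. In all, 20 genes passed with RIN that did not pass without it (adjusted p 0.0624 to 0.866 without it). Of these, 16 lie outside chromosome 17, and all 16 were lower in KO mice. Besides the listed markers they include further genes known from oligodendrocytes, named here after their values were seen. Tspan2, a tetraspanin of the oligodendrocyte membrane, gave 262, 321 and 416 CPM in WT and 199, 248 and 364 CPM in KO libraries, which overlapped. Its log2 difference was -0.38 (adjusted p 0.22) without and -0.43 (adjusted p 0.0113) with RIN. Gjc3, a connexin of oligodendrocytes, went from -0.37 (adjusted p 0.34) to -0.44 (adjusted p 0.0129). S1pr5, a sphingosine 1-phosphate receptor, went from -0.43 (adjusted p 0.399) to -0.53 (adjusted p 0.022), and Enpp6, a marker of newly forming oligodendrocytes, from -0.39 (adjusted p 0.866) to -0.50 (adjusted p 0.0312).

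Summed over the 10 markers, RPKM was 1040 at the lowest, 1180 at the median and 1370 at the highest in WT, and 790, 857 and 1330 in KO libraries. The groups overlapped: the library of KO mouse 452, at 1330 with the highest RIN of 9.3, was second of all 20, and 8 of the 10 KO libraries lay below all WT libraries. In bulk RNA, fewer oligodendrocytes and less of these RNAs per cell cannot be told apart. Of the 5 markers of oligodendrocyte precursors all lay below 0, with a median of -0.19, and 0 passed with edgeR (3 had an unadjusted p under 0.05) and 1, Gpr17, with DESeq2. Gpr17, a receptor of cells on the way to myelination, was lowest at -0.24 (SE 0.0566, adjusted p 0.128 with edgeR and 0.0156 with DESeq2). Olig2 stood at -0.23 and Olig1 at -0.19. Pdgfra, at -0.02, and Cspg4, at -0.06, lay close to 0 (unadjusted p 0.635 and 0.618 with edgeR), so the 5 precursor markers did not fall alike. For other cells the list median was -0.04 for astrocytes, -0.03 for microglia, 0.03 for endothelial cells and 0.07 for interneurons, and 0 genes of these lists passed. Of the 12 interneuron genes, 10 lay above 0, against 50.4 percent of all genes. The 3 genes Calb2, Slc32a1 and Sst were higher in KO at an unadjusted p under 0.05 with edgeR, against 1.47 percent of all genes. The astrocyte, microglia and endothelial lists had 0 genes at that level. Choroid plexus markers had the lowest median of the lists, -0.64, with all 8 below 0, 0 past the threshold with edgeR or DESeq2 and 0 at an unadjusted p under 0.05. That median was 0.05 on the normal and -1.78 on the lacking diet, and their summed RPKM was 15.4, 46.3 and 1050 in WT and 7.11, 27.3 and 1270 in KO libraries, which overlapped. What choroid plexus tissue, dissection, batch or genotype each contributed to the myelin values was not tested.

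**Figure D5:**
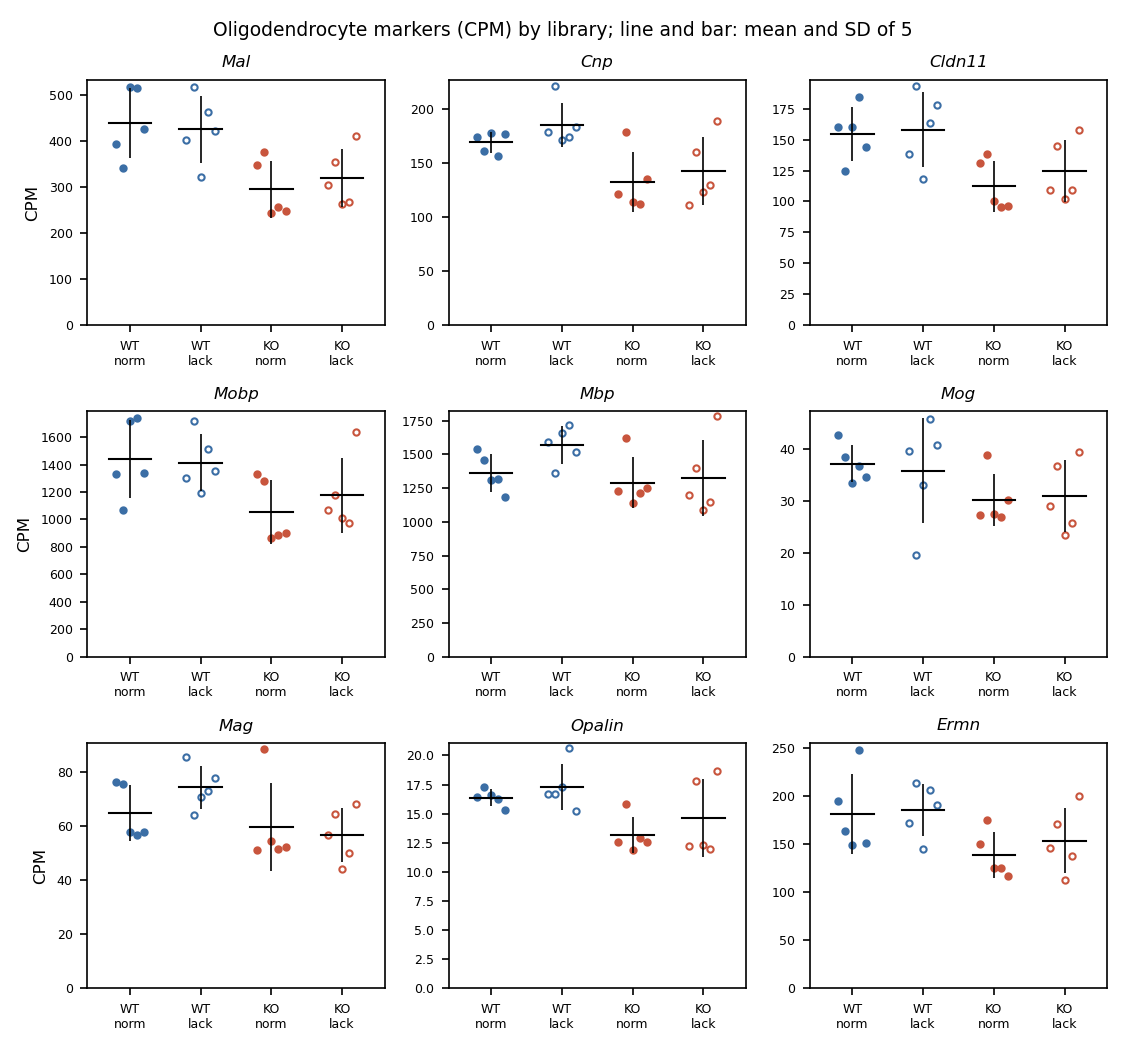
CPM of 9 oligodendrocyte markers in each hippocampus library by genotype and diet (blue WT, red KO, filled normal diet, open lacking diet, linear axis from 0), with the mean and SD of 5 libraries. KO means lie below WT means for Mal, Cnp, Cldn11 and Mobp, with overlap between single libraries.

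Beyond Glo1, no gene around methylglyoxal or VB6 passed the threshold with edgeR or DESeq2. Of 26 tested genes of the glyoxalase system, dicarbonyl reduction and glutathione supply, Glo1 alone passed, and the median was -0.01. Tpi1, the triose phosphate isomerase of glycolysis, had 112, 157 and 204 CPM in WT and 151, 168 and 215 CPM in KO libraries (log2 0.12, SE 0.0840, adjusted p 1). Gss, the last enzyme of glutathione synthesis, had the smallest p of the other members (log2 0.30, SE 0.139, unadjusted p 0.0413, adjusted p 1). Of 7 genes for VB6 handling 0 passed or had an unadjusted p under 0.05: Pdxk, the kinase that phosphorylates VB6, stood at 0.04 (SE 0.0542, adjusted p 1). Of 34 genes for VB6-dependent enzymes 0 passed and 1, Kyat3, had an unadjusted p under 0.05 (0.0385), with a log2 difference of -0.30. Gad2, which makes GABA, had 295, 312 and 437 CPM in WT and 308, 322 and 359 CPM in KO libraries (log2 -0.01, SE 0.0632).

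Genes of the energy, redox and synaptic lists gave 0 calls with edgeR and with DESeq2. Among 75 nuclear genes of oxidative phosphorylation, 63 had values above 0, against 50.4 percent of all genes, with a median of 0.07 and 5 at an unadjusted p under 0.05. Ndufa1, a small subunit of complex I, had the smallest p, with 11, 19.3 and 26.9 CPM in WT and 20.7, 23.5 and 26.7 CPM in KO libraries (log2 0.29, SE 0.105, adjusted p 0.866). Of 33 genes of the antioxidant list 2 had an unadjusted p under 0.05, Gpx8 at -0.50 and Mgst1 at -0.31 (both adjusted p 1). The 15 ionotropic glutamate receptor genes and 12 GABA-A receptor genes had 0 at an unadjusted p under 0.05. Gria1, an AMPA receptor subunit, had 1520, 1580 and 1660 CPM in WT and 1440, 1590 and 1650 CPM in KO libraries. Of 20 immediate early genes, 17 lay above 0, against 50.4 percent of all genes, with a median of 0.06, and none had an unadjusted p under 0.05.

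Below the threshold, the 5 genes with the next smallest p-values were Arhgef10, Zfp955a, Tdrd6, Tmem88b and Clic4, with adjusted p-values of 0.0624 to 0.095. Zfp955a and Tdrd6 also lie on chromosome 17, at 2.65 and 13 Mb after Glo1, with log2 values of 0.62 and 1.26. Zfp955a shares 37.1 percent of its 75-base stretches with Zfp955b, which stood at 0.24 (adjusted p 1).

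The same contrast was set beside the other 2 regions of the same mice. All 21 genes had the same sign in prefrontal cortex and in striatum. Of them 17 passed in prefrontal cortex, where 0.718 percent of 13223 genes passed, and 19 in striatum, where 0.21 percent of 13311 passed. The share of all tested genes with the same sign was not counted, and genotype and batch label coincide in these regions too. None of the 21 passed the threshold for a difference between regions in edgeR's fit of all 60 libraries. The smallest adjusted p was 0.801 against prefrontal cortex and 0.738 against striatum. At an unadjusted p under 0.05 it listed 2 of the 21 against prefrontal cortex and 3 against striatum, beside 6.05 and 5.89 percent of all genes. Zfp40 had the smallest against prefrontal cortex (0.00786) and Zfp760 against striatum (0.00277). With the mouse as a replicate block, the smallest adjusted p among the 21 was 0.675 and 0.688. Mal stood at -0.28 in prefrontal cortex (adjusted p 0.223) and -0.19 in striatum (adjusted p 0.713), and its difference between regions did not pass (adjusted p 0.899 and 0.738). The other way round, 1 gene of 13930, 0.00718 percent, had a KO effect in hippocampus that differed from that in prefrontal cortex, and 843 (6.05 percent) had an unadjusted p under 0.05.

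That gene was Fndc1 (chromosome 17, 7738569 to 7827340), which encodes a protein with fibronectin type III domains and lies in the proximal stretch with Tagap and Prr18. In hippocampus it gave 5.09, 6.79 and 9 CPM in WT and 5.27, 6.91 and 8.23 CPM in KO libraries, so that the groups lay on top of each other (log2 -0.01, SE 0.113, adjusted p 1). In prefrontal cortex it gave 1.19, 1.94 and 3.03 CPM in WT and 2.96, 4.79 and 7.17 CPM in KO libraries, with a log2 fold change of 1.28 (SE 0.176, adjusted p 4.66e-05). In striatum it was 0.88 (SE 0.154, adjusted p 0.0036). The difference of hippocampus minus prefrontal cortex was -1.30 (SE 0.230, adjusted p 0.00679), and that of hippocampus minus striatum was -0.90 (SE 0.200, adjusted p 0.222). Against striatum edgeR called 0 genes and listed 820 at an unadjusted p under 0.05 (5.89 percent). The closest to the threshold was Enpp5, the neighbour of Enpp4, which had a difference of 0.30 (SE 0.0618, adjusted p 0.133).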

How the data were processed

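The authors deposited raw counts per gene and RPKM values for 21999 genes in 60 columns, 1 per library, each matched to its sample by name. Counts are whole numbers per gene; RPKM values are the authors' counts divided by gene length and library depth. The submitters' processing notes name STAR 2.7.1a, HTSeq 0.9.1 and mm10, without their roles. Gene positions are from RefSeq GRCm38.p6, to which 21328 genes were matched.

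The 20 hippocampus libraries were fitted with edgeR 4.0.16 in R 4.3.3 (TMM factors, filterByExpr by group keeping genes by a count of 10 and a total of at least 15, diet and genotype as terms, quasi-likelihood F-tests, two-sided, Benjamini-Hochberg adjustment over all genes tested, threshold 0.05). Standard errors were derived from F. CPM are TMM-normalised. Effects per diet came from a mean per group, and differences between regions from a fit of all 60 libraries without a mouse block. The mouse numbers in the labels tie the 3 libraries of a mouse together. The deviations of hippocampus from group means correlated with those of the same mouse by 0.0369 on average for prefrontal cortex and 0.0709 for striatum. Single genes can depart from this average. With a mouse block the SE of the difference from prefrontal cortex fell from 0.453 to 0.292 for Tagap and rose from 0.672 to 0.73 for Rsph3b. Replicates of a group were compared in 40 pairs, with a chi-square per gene of 2.97 to 27.5, so no library was a copy of another. Shared sequence was counted over all 75-base stretches of GENCODE M21 transcripts.

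Named genes were Glo1, every gene past the threshold, the 5 just outside it, the 5 tested genes on each side of Glo1, and in each list the 2 members with the smallest p and the 2 with the highest RPKM. Members, lists and markers were chosen with earlier results of these data known. Cldn11, Mbp, Pdgfra, Cspg4, H2-T23, Zfp955b, Tspan2, Gjc3, S1pr5, Enpp6, Rnaset2a, Rsph3a, Unkl, Fndc1 and Enpp5 fall outside that rule and were named after their values were seen. Alternatives were DESeq2 1.42.0, limma 3.58.1 with an intensity trend on log2(RPKM + 1), no TMM factors, other filters, RIN as a covariate, each diet alone and leaving out libraries. The edgeR fits, and the DESeq2 and limma fits of KO against WT, were tested on simulated data. Single values of some list members are not reported here.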

Additional observations from a re-analysis of the deposited data

Results flagged for a closer look

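6 of 144 groups of 5 libraries examined held a library that stood apart from the other 4 (its gap to the nearest was over 0.71 of the range), and chance gives about 1 group in 20. Prss41 was 1.61 CPM in the WT lacking-diet library of mouse 241, beside 0 to 0.181 in the others, and 1.82 CPM in the WT normal-diet library of mouse 317, beside 0 to 0.207. Ppil1 was 1.98 CPM in the KO normal-diet library of mouse 267, beside 3.3 to 3.69. Zfp40 was 48.9 CPM in the KO lacking-diet library of mouse 339, beside 53.7 to 55. Summed RPKM of oligodendrocyte precursor markers was 33.9 in the KO lacking-diet library of mouse 325, beside 36.6 to 37.6. Summed RPKM of choroid plexus markers was 1270 in the KO normal-diet library of mouse 267, beside 23.1 to 368. The KO effect on Fndc1 differed between regions, by -1.30 on the log2 scale for hippocampus minus prefrontal cortex.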

How the results depend on the processing

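The count of 21 genes past the threshold was 37 with DESeq2 and 41 with RIN as a covariate, 2 on the normal diet alone (5 against 5 libraries), 8 on the lacking diet alone, and 2 without the 8 libraries whose choroid plexus markers summed above 100 RPKM (6 against 6). On chromosome 17 the last 3 of these settings gave 2, 8 and 2 in place of 20. Leaving out 1 library gave 17 to 30 genes in all and 17 to 22 on chromosome 17. Without the libraries of mice 226 and 286, 25 passed, 19 of them among the 21, with Mal and H2-T24 lost. The list members past the threshold were 2 on each diet alone in place of 4. All 21 genes kept their direction wherever they were tested. Limma lost the call of H2-T24 (adjusted p 0.0596). The interaction count was 0 in the main fit, with DESeq2, without TMM factors, without a filter, with RIN, and in the 20 fits that left out 1 library; no other setting was run for it. With the mouse as a replicate block, the count of genes differing from prefrontal cortex stayed at 1 (Fndc1, -1.29, adjusted p 0.00917) and from striatum at 0 (Enpp5, adjusted p 0.0507). Leaving out 1 hippocampus library gave 1 to 2 and 0 to 1, the higher values without KO mice 268 and 267. Choices added after seeing the data were the omission of mice 226 and 286, of the choroid-rich libraries, and the count on chromosome 17 under each setting. The cause of these shifts was not tested. Several settings also held fewer libraries, and what that contributed was not tested either.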
